A study of Saccharomyces cerevisiae with 2 samples.

Results

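Strong footprint peaks at codons that a gene uses exactly once were described in 1 ribosome footprint library of budding yeast, Saccharomyces cerevisiae. A sense codon was a member when it occurred once in a gene, the gene had 1000 or more footprints, and the footprints on the codon came to 4 or more times the gene's mean footprints per codon. This ratio to the gene mean is the quantity used throughout, so a codon with a ratio of 1 has as many footprints as the gene has per codon on average. The rule gave 340 members in 244 genes, out of 4062 single-occurrence sense codons in 554 genes (8.37%), and 5 further genes of the 559 with enough footprints had no sense codon that occurred once. Because the footprint counts chose the members, their ratios are a description and were not tested.

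The series holds 2 libraries of the strain yJC2229, 1 of ribosome footprints and 1 of total RNA, from untreated mid-log cultures in the rich medium YPD with 2% glucose, kept at 24 °C. No genotype beyond the strain name is given, and both libraries come from that strain. Cycloheximide, which arrests elongating ribosomes, was present at lysis, and the footprints were taken from the 80S fraction of a sucrose gradient. The footprint library held 3756929 footprints in 4579 listed genes, and the 554 genes used here had between 0.865 and 535 footprints per codon, with a median of 8.51.

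A ribosome footprint is the stretch of mRNA that a translating ribosome shields from nuclease. A codon on which ribosomes dwell longer is caught more often, so footprints pile up there. Dwell is known to depend on how quickly the matching tRNA arrives and on the chemistry of the peptide bond: proline is a poor substrate for bond formation, and yeast relies on the factor eIF5A to move ribosomes through proline stretches. In yeast the codons CCG, CTG and GCG have no tRNA with a fully matching anticodon and are read by U-G wobble, and CGA is read by the inosine tRNA of arginine through an inosine-adenine pair. For a codon that occurs once the count belongs to a single place in the gene, whereas counts of repeated codons are averages over several places.

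The members made up 0.177% of the codons of the 554 genes and held 1.54% of their footprints (44625). Their ratios ran from 4.01 to 71.1 with a median of 5.73, and their footprint counts from 5 to 5268 with a median of 41.0. The 3722 other single-occurrence codons had a median ratio of 0.654, a 75th percentile of 1.43, and no footprint at all on 670 of them (18.0%). Of all single-occurrence codons, 152 (3.74%) reached 6 times the gene mean, 42 (1.03%) reached 10 times and 8 (0.197%) reached 20 times. By footprints per occurrence, 223 of 340 members (65.6%) were the highest of all sense codons in their gene, and 333 were among the highest 3. The rule itself makes a high rank likely. Members had to reach 4 times the gene mean, and repeated codons are averages over several places. Just inside the threshold lay PYP1 AGG at 4.007 with 20 footprints, VMA4 AGG at 4.009 with 73 and RPS2 CAT at 4.011 with 271. Just outside it lay MMF1 AGC at 3.994 with 69 footprints, GIS2 CCT at 3.991 with 63 and NCE102 TGG at 3.985 with 59.

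**Figure D1:**
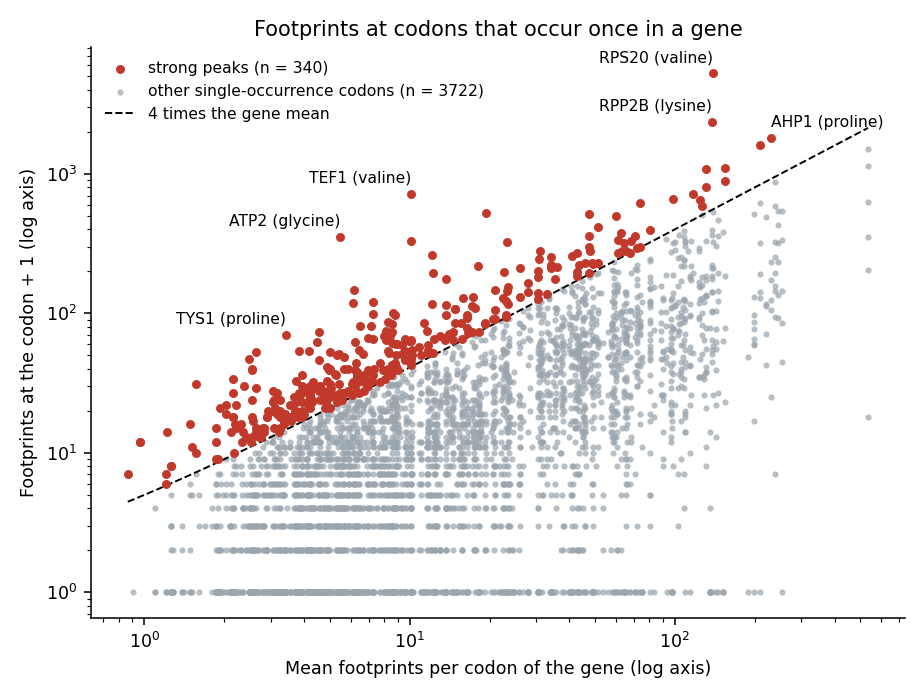
Footprints at each single-occurrence sense codon plus 1 (vertical, log axis) against the mean footprints per codon of its gene (horizontal, log axis), for 340 strong peaks and 3722 other codons; the dashed line marks 4 times the gene mean. A few peaks stand far above the line, TEF1 at 71.1, ATP2 at 64.5 and RPS20 at 38.0 times their gene means. TEF1 has a near-identical copy, and its gene mean includes many codons with no footprint.

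The highest members belonged to abundant proteins of translation and energy metabolism. TEF1 (YPR080W, chromosome XVI, 700594 to 701970 in the RefSeq annotation of assembly R64, which is sacCer3), a gene of elongation factor 1-alpha, held 722 footprints on its only GTG (valine), against a gene mean of 10.2, a ratio of 71.1 (exact Poisson 95% interval 66.0 to 76.5, counting error only). ATP2 (YJR121W, chromosome X, 647607 to 649142), the beta subunit of the mitochondrial ATP synthase, held 353 footprints on its only GGA (glycine), against a gene mean of 5.48, a ratio of 64.5 (57.9 to 71.5). RPS20 (YHL015W, chromosome VIII, 75412 to 75777), a small subunit ribosomal protein, held 5268 footprints on its only GTG (valine), the most of any member, at 38.0 times the gene mean (37.0 to 39.1). These single codons held 15.5%, 12.6% and 31.2% of all footprints of TEF1, ATP2 and RPS20. TEF1 has a near-identical copy, TEF2, and 42.4% of its codons were of kinds with 0 footprints, which its gene mean includes. Its ratio is described further on with that of TEF2.

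Neither GTG nor GGA was far above the gene mean where it occurred more than once. In pairs of gene and codon with 2 or more occurrences, in the same 554 genes, GTG averaged 1.30 and GGA 1.15 times the gene mean. The other 13 valine codons of RPS20 averaged 0.373 times its gene mean, and the other 45 glycine codons of ATP2 averaged 0.876. Both gene means include the member itself, which held 31.2% of the footprints of RPS20 and 12.6% of those of ATP2. This lowers the 2 values. RPP2B, a protein of the ribosomal stalk, gave a similar picture: its only AAA (lysine) held 2353 footprints, or 17.0 times the gene mean (16.4 to 17.7), while repeated AAA averaged 0.986. It was the only lysine member among 51 single-occurrence lysine codons.

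Further members among the 15 highest ratios came from several processes. ARF1, a GTPase of vesicle coats, had 528 footprints on GGA (27.1 times the gene mean), and its twin ARF2 had 146 on the same codon (23.7). The tyrosyl-tRNA synthetase TYS1 had 69 footprints on CCG (20.2) and the leucyl-tRNA synthetase CDC60 had 30 on CCC (19.2), which are both proline codons. YNR021W had 52 footprints on the arginine codon AGG (19.8), and the RNA helicase DBP2 had 46 on the arginine codon CGA (18.6). FCY1, cytosine deaminase, had 120 footprints on the arginine codon CGC (16.5), and LAT1, the acetyltransferase of pyruvate dehydrogenase, had 73 on CCG (16.1). The remaining ones were GAG in TEF1 (32.2) and in TEF2 (21.5) and GGG in RPS6B (19.4), genes with near-identical copies that are described further on.

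By footprint count rather than ratio, the members after RPS20 and RPP2B were mostly in glycolytic, antioxidant and ribosomal genes. The peroxiredoxin AHP1 held 1819 footprints on CCG (7.92 times the gene mean), and the short reading frame YDR524C-B held 1617 on the arginine codon CGT (7.72). The phosphoglycerate mutase GPM1 was a member at 2 proline codons, with 1101 footprints on CCC (7.12) and 892 on CCT (5.77). The large subunit proteins RPL37A and RPL25 held 1090 on CCT (8.30) and 800 on the leucine codon CTA (6.13), and the pyruvate decarboxylase PDC1 held 713 on the glycine codon GGC (6.09). Of the 340 members, 9 held 10% or more of their gene's footprints and 34 held 5% or more. Among the 9 was MFA2, a gene of the a-factor pheromone precursor of only 39 codons with the stop, where CCG held 228 of 1791 footprints (12.7%) at a ratio of 4.96.

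Amino acids differed widely in how often their single codons were members. Proline led with 69 of 321 (21.5%, exact binomial 95% interval 17.1 to 26.4), followed by alanine with 33 of 223 (14.8%, 10.4 to 20.1), glycine with 36 of 294 (12.2%, 8.73 to 16.5), arginine with 46 of 379 (12.1%, 9.02 to 15.9) and leucine with 52 of 468 (11.1%, 8.41 to 14.3). The intervals of these 5 lay above the share over all pairs, 8.37%. The intervals of 7 amino acids lay below it, namely serine (22 of 484, 4.55%), threonine (10 of 252, 3.97%), cysteine (9 of 250, 3.60%), histidine (6 of 198, 3.03%), asparagine (1 of 84, 1.19%), phenylalanine and methionine. Phenylalanine had 0 members among 123 codons, which allows a share of up to 2.95% by the exact interval. Methionine had 0 among 73, and there the single ATG is the start codon, which held no footprint in 50 of the 73 genes. These intervals cover counting of codons only, and codons of 1 gene share its mean.

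**Figure D2:**
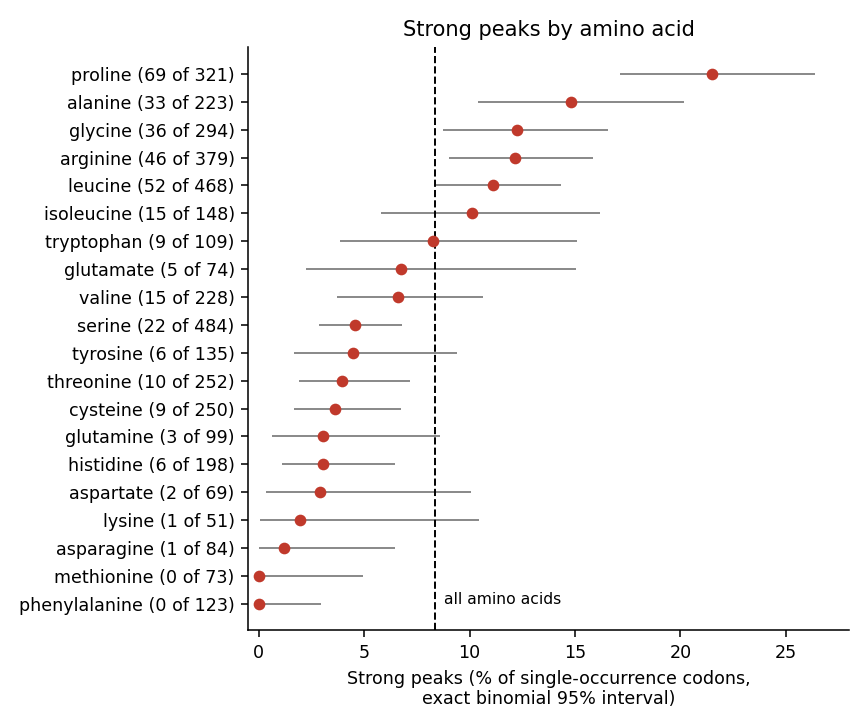
Share of single-occurrence codons that were strong peaks (horizontal, %, with exact binomial 95% intervals) for each of 20 amino acids, with the number of peaks and of codons; the dashed line marks the 8.37% over all pairs. Proline stands highest at 21.5%, and phenylalanine and methionine have none.

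Within an amino acid the members gathered on particular codons. For proline, CCG had 25 members of 94 single codons (26.6%, 18.0 to 36.7), CCC 26 of 107 (24.3%, 16.5 to 33.5) and CCT 17 of 96 (17.7%, 10.7 to 26.8). CCA, the proline codon used most in the listed genes, had 1 of 24 (4.17%, 0.105 to 21.1), and its interval overlaps those of the other proline codons. For leucine, CTG had 25 of 94 (26.6%, 18.0 to 36.7) and CTC 17 of 104 (16.3%, 9.82 to 24.9), while the other 4 codons together gave 10 members, and CTT had 3 of 97 (3.09%) and CTA 4 of 99 (4.04%). For arginine, CGA had 8 of 26 (30.8%, 14.3 to 51.8), CGG 6 of 27 (22.2%, 8.62 to 42.3), AGG 17 of 114 (14.9%, 8.93 to 22.8) and CGC 13 of 89 (14.6%, 8.01 to 23.7), against 1 of 106 for CGT (0.943%, 0.0239 to 5.14). For alanine, GCG carried 24 of the 33 members (20.2% of 119 single GCG codons, 13.4 to 28.5). Glycine members were spread over GGC (14 of 89, 15.7%), GGG (11 of 100, 11.0%) and GGA (11 of 102, 10.8%). Of the 61 sense codons, 46 had at least 1 member. The codons with 20 or more single occurrences and 0 members were asparagine AAT, threonine ACC, isoleucine ATC, methionine ATG, aspartate GAT, valine GTT, serine TCT, and for phenylalanine both TTC and TTT.

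Grouped by decoding, a grouping made after the codon shares were known, the wobble codons CCG, CTG and GCG together had 74 members of 307 single codons (24.1%, 19.4 to 29.3). With CGA they supplied 24.1% of all members from 8.20% of all single codons. The other G-ending codons, which have a tRNA of their own, had 75 of 885 (8.47%, 6.72 to 10.5). This group included the 73 single ATG codons, which are start codons and had 0 members. Its codons also differed among themselves, for example CAG with 3 of 84 (3.57%) and CGG with 6 of 27 (22.2%). C-ending codons read by inosine had 46 of 346 (13.3%, 9.90 to 17.3) and T-ending codons read by inosine 22 of 324 (6.79%, 4.30 to 10.1). Few codons supplied most members of these 2 groups. Proline CCC gave 26 and arginine CGC 13 of the 46, and proline CCT gave 17 of the 22. These shares therefore do not separate decoding from amino acid. T-ending codons decoded through a G-U wobble pair had the lowest share, 15 of 626 (2.40%, 1.35 to 3.92). Leucine CTT was not placed in this group. The remaining A-ending or C-ending codons together with CTT had 100 of 1548 (6.46%, 5.29 to 7.80). Base content moved along with this grouping: codons of 3 G or C bases had 123 members of 648 (19.0%), of 2 such bases 161 of 1776 (9.07%), of 1 such base 32 of 1156 (2.77%), and of 0 such bases 24 of 482 (4.98%). The part of base content in these shares was not tested.

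The rule left out codons that occur 2 or more times in a gene, so their values give a readout of the same codons that did not choose the members. For a given codon these values come from other genes of the same set of 554, since a gene has a codon either once or repeatedly. Across the 53 codons with 20 or more single occurrences, the share of members and the mean value at repeated occurrences had a Spearman rho of 0.73 and a Pearson r of 0.82. Both values of a codon come from the same library. Repeated CCG averaged 4.30 times the gene mean, CGA 3.78 (from only 3 genes), CTG 2.76, CCC 2.27, GCG 2.13, CTC 2.02 and CCT 1.93, and all 7 had at least 16.3% members at single occurrences. Tryptophan TGG averaged 1.50 at repeated occurrences and had 9 of 109 members (8.26%), close to the share over all pairs. The rare arginine codon CGG, with 22.2% members, averaged 0.901 at repeated occurrences, again from only 3 genes. The share of members was lower in codons that are common in the listed genes (rho -0.57 with the number of occurrences over all 4579 genes).

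**Figure D3:**
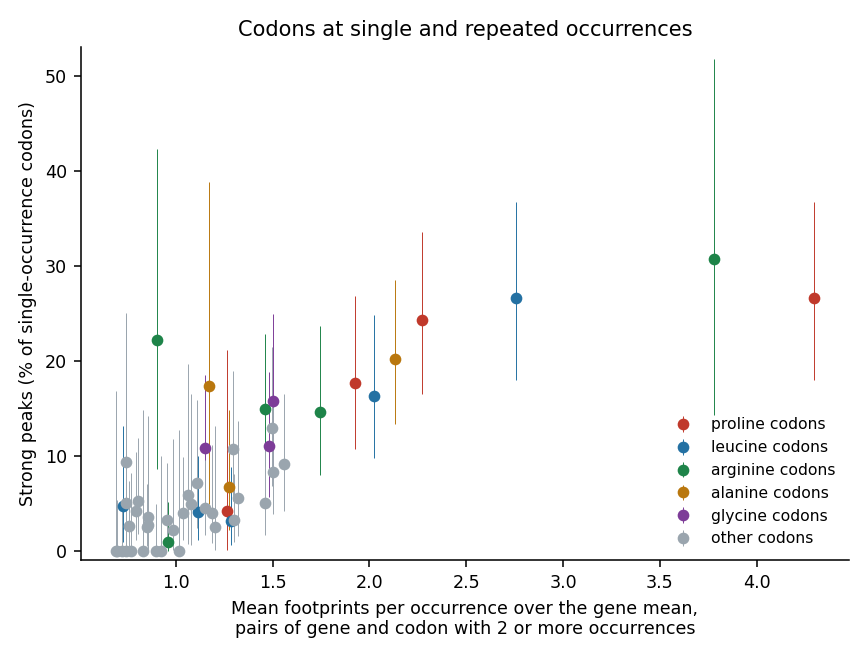
Share of single-occurrence codons that were strong peaks (vertical, %, exact binomial 95% intervals) against the mean value of the same codon in pairs of gene and codon with 2 or more occurrences (horizontal, ratio to the gene mean), 1 point for each of 53 codons, coloured by amino acid. Codons above 1.9 on the horizontal axis belong to proline, leucine, arginine and alanine and have shares of 16.3% or more.

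Each member was also set against its codon's own value at repeated occurrences. Of the 340 members, 140 (41.2%) were also at 4 or more times that codon value. This count is a description on the same counts that chose the members: a member at a codon whose repeated value is 1 or below passes by construction, which held for 38 of the 140, and a codon with a high repeated value sets a higher bar. Among the 140 were 13 of 69 proline, 12 of 52 leucine, 8 of 33 alanine, 23 of 36 glycine, 11 of 15 valine, 14 of 22 serine and 6 of 6 tyrosine members. TYS1 was the single case among the 25 CCG members. Members at the wobble codons CCG, CTG and GCG together with those at arginine CGA supplied 6 of the 140 and were 82 of the 340. Outside duplicated genes, those with the highest ratios were ATP2 GGA, RPS20 GTG, TYS1 CCG, YNR021W AGG, CDC60 CCC, DBP2 CGA, RPP2B AAA and FCY1 CGC.

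The other codons of the same amino acid in the same gene lay near the gene mean, which includes the footprints of the single codon itself. Where the gene had such codons, they had a median of 1.09 times the gene mean for members (quartiles 0.807 and 1.38, n = 324) and 0.957 for the other single-occurrence codons (0.677 and 1.29, n = 3286). They lay at or above the gene mean for 59.0% of the members and 46.0% of the others, and at 4 times the gene mean for 1 member and 21 others. For proline the medians were close, 1.49 beside members (n = 68) and 1.44 beside the other single proline codons (n = 243).

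The depth of a gene moved with the share of members. The share was 17.2% (17 of 99) in genes with under 2 footprints per codon, 12.1% (112 of 925) from 2 to 5, 9.59% (92 of 959) from 5 to 10, 6.28% (91 of 1450) from 10 to 50 and 4.45% (28 of 629) from 50 upwards. For 172 of the 340 members the lower bound of the exact Poisson interval lay at 4 or more times the gene mean. Over these classes, in the same order, the proline share was 33.3% (4 of 12), 24.0% (23 of 96), 21.4% (18 of 84), 17.9% (17 of 95) and 20.6% (7 of 34), all with overlapping intervals. CTG, GCG and CGA together had 12.5% (1 of 8), 28.1% (27 of 96), 25.9% (21 of 81), 16.7% (8 of 48) and 0 of 6. All other codons went down from 15.2% to 8.46%, 6.68%, 5.05% and 3.57%. Length moved with it too: 4.0% of single codons were members in genes with at most 150 codons, 8.10% above 150 and up to 300, 11.3% above 300 and up to 500, and 13.3% beyond 500 codons. Counted once for each single codon and not once per gene, the genes of members had a median of 322 codons and 6.72 footprints per codon. Those of the other single codons had a median of 217 codons and 11.6 footprints per codon. A gene can be in both groups. The part of length was not tested apart from depth.

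**Figure D4:**
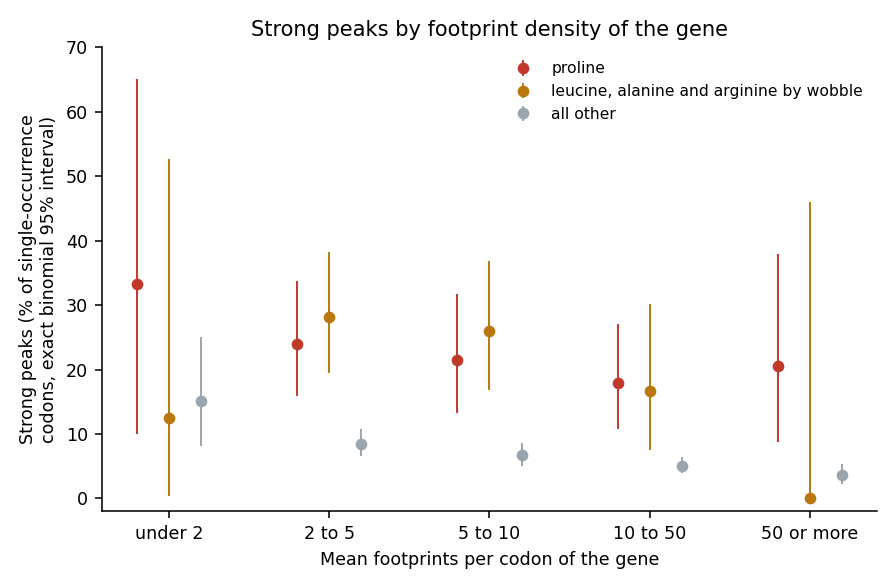
Share of single-occurrence codons that were strong peaks (vertical, %, exact binomial 95% intervals) by mean footprints per codon of the gene (horizontal, 5 classes), for proline codons, for the leucine, alanine and arginine codons CTG, GCG and CGA, and for all other codons. Over these classes of depth proline lies between 17.9% and 33.3%, while all other codons run from 15.2% to 3.57%.

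Genes with a likely copy, picked by composition and not by sequence, are given separately, because a short footprint can match both copies. How such reads were counted is not given in the sources used here. Composition can miss copies: RPL16A and RPL16B, with members at CTT and GTA, counted as genes without a duplicate. Of the 554 genes, 142 had a partner of near-equal amino acid composition and 69 of them a partner with near-equal codon composition as well. The share of members was 8.35% (39 of 467) in these 69 genes, 4.80% (27 of 563) in the other duplicates and 9.04% (274 of 3032) in genes without a duplicate, so duplicates did not supply most members. Duplicates supplied 11 of the 42 members at 10 times the gene mean or more. Genes without a duplicate supplied the other 31 and held 74.6% of all single codons. Single codons with no footprint were 31.3% in the 69 genes and 15.3% in genes without a duplicate, while the median gene mean was 30.4 footprints per codon in the 69 genes and 5.89 in genes without a duplicate.

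TEF1 and TEF2, which encode the same elongation factor 1-alpha, are an example. Their codon compositions differed by 0.437%, and in each gene 17 of the 34 codon kinds present had 0 footprints, which covered 42.4% of the codons of TEF1 and 38.2% of those of TEF2. The single GAG of TEF1 held 327 footprints (32.2 times the gene mean), while its 30 GAA codons, for the same amino acid, held 0. The single GAG of TEF2 held 261 footprints (21.5), and its 30 GAA codons also held 0. GTG held 722 footprints in TEF1 and 115 in TEF2 (9.46). The gene means, 10.2 footprints per codon in TEF1 and 12.2 in TEF2, include the empty codons. The part of shared reads in these values was not tested.

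Where both copies have the codon once, some peaks came in pairs. Of 66 members in duplicated genes, 31 had a partner with the same codon once, and in 18 of these the codon of the partner was at 4 or more times its own gene mean too. Among the other single-occurrence codons of duplicated genes it was 12 of 506. A matched pair counts from both genes in the first count. An unmatched pair can count from each gene in a different group, so the counts are not independent. The 18 members form 9 matched codons, GAG and GTG of TEF1 and TEF2 and 7 others: ARF1 and ARF2 at GGA (27.1 and 23.7), RPS6B and RPS6A at GGG (19.4 and 12.3), RPL11B and RPL11A at CCT (14.0 and 5.30), HSP82 and HSC82 at CAC (10.4 and 4.18), RPL1A and RPL1B at ATT (7.48 and 6.10), RPS11B and RPS11A at TGG (5.95 and 4.41), and RPS9A and RPS9B at CCT (4.43 and 4.42). Reads of near-identical copies cannot be assigned with certainty, so such pairs are not independent. ARF1 and ARF2 differ in 19.9% of their codon composition, more than the ribosomal pairs RPS6 (2.54%) and RPL11 (4.02%). Other pairs parted: RPL37A held 1090 footprints on CCT (8.30) and RPL37B held 4 on its single CCT (0.0613), and RPS21A held 419 on GGC (8.20) against 89 in RPS21B (1.10).

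By gene function the shares ran from 3.06% to 14.4%, and by codon, among those with 20 or more single occurrences, from 0 to 30.8%. Of the 20 gene lists with enough footprints, 1 had an interval away from the 8.37% over all pairs: the cytosolic ribosomal proteins, with 59 members of 1020 single codons (5.78%, 4.43 to 7.40) in 46 of 136 genes. If every codon had its share over all genes, the codons of this list would give 5.34%, which lies within that interval. Those shares include the list's own codons and members, so the 5.34% is not independent of the 5.78%. This list had the most footprints per codon (median gene mean 49.2), and 41 of its 59 members and 785 of its 1020 single codons lie in duplicated genes. With duplicated genes left out, an alternative chosen after the data were seen, the share was 7.66% of 235 single codons (4.60 to 11.8). This wider interval holds 8.37% and the 9.04% of genes without a duplicate, but also the 5.78% of the whole list. It therefore cannot tell whether the difference remained. Besides RPS20 and RPP2B, the list included ASC1, the ribosome-bound RACK1 homologue, with 4 members: GGA (515 footprints, 10.9 times the gene mean), GCA (358, 7.55), AGT (296, 6.24) and ACA (194, 4.09). RPL14A had 3, at GGC (7.36), GCA (6.45) and GTG (6.22). No mitochondrial ribosomal protein gene of the list for them reached 1000 footprints.

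The highest shares belonged to subunits and carriers of oxidative phosphorylation, with 13 of 90 (14.4%, 7.92 to 23.4), but these came from 6 genes. ATP16, the delta subunit of the ATP synthase, supplied 4 of them, at TCG (5.21), ACA (5.06), CCT (4.61) and CTG (4.02). Sugar and amino acid transporters had 5 of 35 (14.3%, 4.81 to 30.3), the highest being CTC of the dicarboxylic amino acid permease DIP5 (7.52 from 14 footprints). Cell wall and secreted proteins had 22 of 184 (12.0%, 7.65 to 17.5), led by CCG of YGP1 (9.84). Aminoacyl-tRNA synthetases had 12 of 102 (11.8%, 6.23 to 19.6), amino acid synthesis genes 22 of 204 (10.8%, 6.88 to 15.9), led by CGG of the threonine deaminase ILV1 (10.4), and chaperones 20 of 190 (10.5%, 6.55 to 15.8), led by GTG of the Hsp90 gene HSC82 (16.0).

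At the lower end, redox enzymes had 3 of 98 (3.06%, 0.636 to 8.69), the proteasome and ubiquitin genes 3 of 80 (3.75%, 0.780 to 10.6), histones 3 of 76 (3.95%, 0.822 to 11.1), glycolytic and fermentation enzymes 4 of 98 (4.08%, 1.12 to 10.1) and initiation factors 5 of 121 (4.13%, 1.36 to 9.38). Their leading members were CCG of AHP1 (7.92), GGG of the proteasome subunit PRE6 (6.85), CCA of the histone H4 gene HHF2 (6.52), CCC of GPM1 (7.12) and GGG of the helicase DED1 (13.8). For the initiation factors the codon shares over all genes would give 9.88%, just above the interval. The remaining lists lay between 5.32% and 11.1%: sulfur and methionine (6 of 54, led by CGG of the adenosine kinase ADO1 at 6.67), ergosterol and fatty acid synthesis (14 of 130, ACG of the squalene synthase ERG9 at 14.9), elongation and termination factors (8 of 77, GTG of TEF1), vacuolar ATPase and PMA1 (13 of 144, CTG of VMA5 at 13.6), cytoskeleton (5 of 64, CCG of the actin-binding protein ABP1 at 15.4), nucleotide and one-carbon synthesis (11 of 141, CGC of FCY1), ribosome assembly (7 of 94, CGA of DBP2) and the secretory pathway with its GTPases (5 of 94, GGA of ARF1). Genes in no list held 100 members of 991 single codons (10.1%, 8.29 to 12.1).

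**Figure D5:**
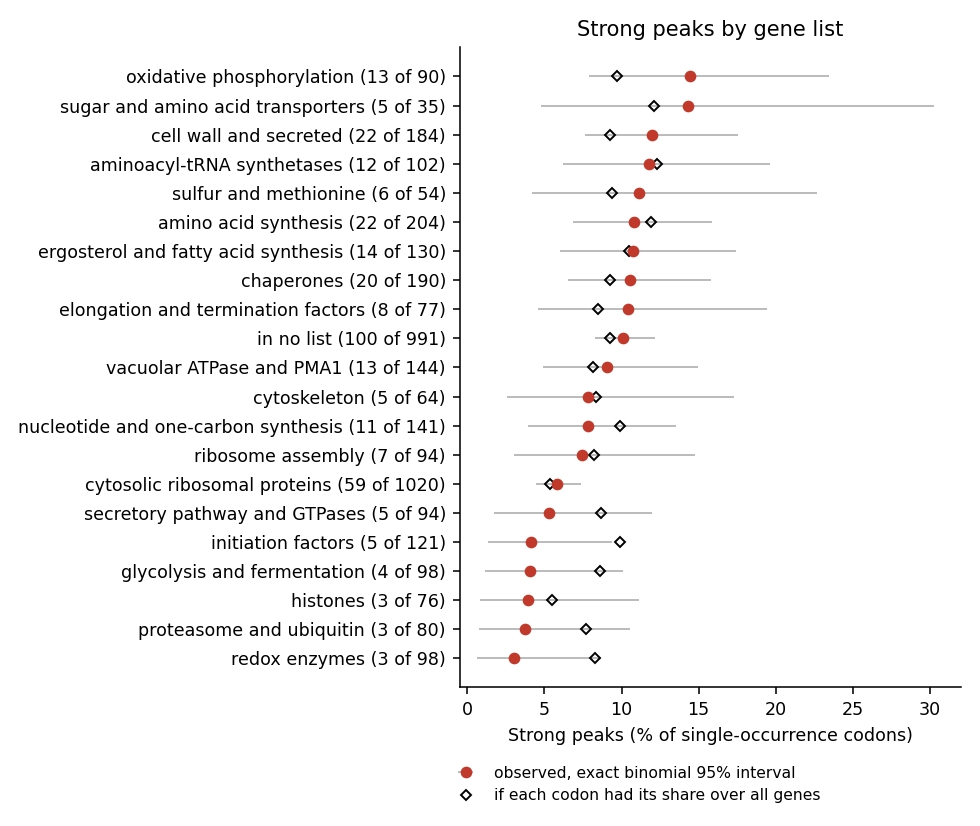
Share of single-occurrence codons that were strong peaks (horizontal, %) for 20 gene lists and the genes in no list, with exact binomial 95% intervals, the number of peaks and of codons; open diamonds give the share if each codon had its share over all genes. All diamonds except that of the initiation factors lie within the intervals, and the cytosolic ribosomal proteins stand at 5.78% with a diamond at 5.34%. The shares over all genes include each list's own codons, so diamonds and points are not independent. The intervals are not adjusted for the number of lists.

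Most genes with a member had a single one. Of the 244 genes with a member, 167 had 1, 60 had 2, 15 had 3 and 2 had 4, the last being ATP16 and ASC1. The members of FCY1, at CGC (120 footprints), CTG (98, ratio 13.5) and GCG (35, ratio 4.81), held 21.8% of its 1158 footprints. Those of SML1, an inhibitor of ribonucleotide reductase, at CGC (6.97), TCA (5.01) and TGC (4.30), held 15.5% of 2200. MBF1, a coactivator that also binds stalled ribosomes, had 175 footprints on CCC (12.8) and 114 on CCT (8.31). With no sequence by position, whether members of 1 gene lie close to each other was not analysed here. Stop codons, measured in the same way, were at 4 or more times the gene mean in 165 of 554 cases (29.8%), more often than the single sense codons of any amino acid. Pairs of gene and sense codon with 2 or more occurrences reached that level in 283 of 20837 cases (1.36%), where the value is a mean over several places.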

How the data were processed

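The series has 1 footprint library and 1 library of total RNA. For each gene, the deposited table gives raw footprint counts on each of 64 codons, summed over the codon's occurrences, per the file headers. A second set of 64 columns was read as codon occurrences: 4575 genes have 1 stop codon there, 0 pairs have footprints without an occurrence, and 3 times their sum equals the annotated gene length in 94.9% of the matched genes. No unit is stated for them. Per the submitters' processing notes, HISAT2, Bowtie2, cutadapt and HTSeq were used with sacCer3, in roles not stated there. How reads were assigned to a codon or to several genes is not given in the sources used here. The 1 abundance column and the total RNA library were not used here.

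The gene mean is all footprints over all codon occurrences, stop codons included. Intervals are exact Poisson for counts and exact binomial (Clopper-Pearson) for shares, at 95%. They cover counting error only, and PCR reads are not independent molecules. With a single footprint library, no test between samples was made. A duplicate is a gene whose amino acid composition differs by at most 4% from another's, and a near-identical one also by at most 10% in codons. Members, lists and decoding groups were chosen with earlier results of these data known. Named members were the 15 highest ratios, the 10 highest counts, the highest of each list and 3 on either side of the threshold; named genes were the 5 with most members, and others were chosen after their values were seen. Positions in the gene, planned as well, were not analysed here without sequences. Calling was tested on simulated Poisson counts without differences between codons. Peaks were planted only in genes with a mean above 5 footprints per codon, so calling in the other genes was not tested. Symbols came from the RefSeq table of R64, which matched 4578 of 4579 genes. Python 3.11.15, pandas 2.3.3, scipy 1.17.1 and Biopython 1.88 were used.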

Additional observations from a re-analysis of the deposited data

How the results depend on the processing

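The number of members followed the rule. It was 541 (13.3%) at 3 times the gene mean and 152 (3.74%) at 6 times, 604 with genes of 500 or more footprints and 179 (7.42%) with 2000 or more, and 211 (6.95%) with genes of at least 5 footprints per codon. With settings chosen after the data were seen, 160 pairs (3.94%) reached 4 times the gene mean multiplied by the codon's value at repeated occurrences, and 172 (4.23%) had a lower Poisson bound at 4 times the gene mean. Leaving out stop codons from the mean, the pair itself, near-identical genes, all duplicates, ribosomal protein genes or ATG gave between 274 and 346 members and 8.37% to 9.24%. Proline had the highest share of the amino acids under every setting except the division by codon values, where glycine led (7.82%) and proline had 4.05%. With duplicates left out, the share of the cytosolic ribosomal proteins was 7.66% (4.60 to 11.8). That interval holds the share over all pairs and also the 5.78% of the whole list, so it cannot tell them apart. No paired analysis was possible because footprints and total RNA were sequenced once each, which also leaves no library to omit. The planned comparison of positions and neighbouring residues was not run. Genes with few footprints per codon reach the ratio with few footprints, so 129 members in genes with a mean under 5 are the least precise.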
